A study of Mus musculus with 5 samples.

Results

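The 10 genes described here belong to bone morphogenetic protein (BMP) signalling. They are the ligands Bmp2 and Bmp4, the secreted antagonists Sostdc1 and Grem1, the receptors Bmpr1a and Bmpr2, the inhibitory SMAD Smad6, and the target genes Id1, Id2 and Id3. They are 10 of the 18194 genes that the array annotation pairs with a single symbol, and every one of their 20 probe sets was used. All 10 passed the filter on dim signal that left 10853 genes for testing. The genes were chosen with earlier results of these same arrays known, that is, they were selected on their signals with vemurafenib, PLX7904 and DMSO. Their values are therefore given as descriptions, with the interval of each difference and with no p-value.

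B9 cells, a mouse cutaneous squamous cell carcinoma line, were used throughout, and all 3 groups carry the genotype HRAS-Q61L. One group received 1 µM vemurafenib (PLX4032), an inhibitor of mutant BRAF that can activate RAF signalling in cells with mutant RAS, and has 2 arrays. The second received 1 µM PLX7904, a RAF inhibitor designed to avoid that activation, and also has 2 arrays. The third received DMSO vehicle, labelled as 0.2%, and has 1 array, and every culture was harvested at 17 h. All values come from 1 cell line, and nothing in the labels beyond the word "biological" says how the replicate cultures were separated, so the errors measure the spread between these arrays. The DMSO array has no replicate, and its error is borrowed from the treated arrays.

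BMP ligands bind a complex of type I receptors (such as BMPR1A) and type II receptors (such as BMPR2), which phosphorylates SMAD1, SMAD5 and SMAD9. These pair with SMAD4 and enter the nucleus, where the Id genes are among their best known targets. ID proteins lack a DNA-binding domain and hold E proteins such as TCF3, TCF4 and TCF12 away from DNA. In keratinocytes, ID proteins are known for a role in holding back differentiation. Secreted antagonists such as gremlin 1 and SOSTDC1 act outside the cell, the first by binding BMPs and the second by binding BMPs and the Wnt co-receptors. SMAD6 inhibits the receptor-activated SMADs and is itself a BMP target, so that it acts as a feedback inhibitor.

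A gene was called where limma gave an adjusted p under 0.05, with Benjamini-Hochberg adjustment over all genes tested. With vemurafenib against DMSO, 6 of the 10 genes were called, 1 of them higher (Bmp2) and 5 lower (Sostdc1, Smad6, Id1, Id2 and Id3). Of all genes tested, 10.6% were called in this comparison, 5.44% higher (590 genes) and 5.21% lower (565 genes). With PLX7904 against DMSO, 0 of the 10 genes were called, and 0% of all genes were. With vemurafenib against PLX7904 the same 6 genes were called in the same directions, while 13.3% of all genes were called, 6.43% higher (698 genes) and 6.86% lower (745 genes). The median log2 difference over the 10 genes was -0.64 for vemurafenib minus DMSO (-0.05 over all genes tested), -0.07 for PLX7904 minus DMSO (-0.01) and -0.58 for vemurafenib minus PLX7904 (-0.04). Because the genes were selected on these contrasts, nothing is read from their counts against these shares. Scaling every array to a common median shifted the median difference of all genes by 0.15 on the log2 scale in both vemurafenib comparisons. It gave 792 genes called higher and 227 lower against DMSO, and 1225 higher and 307 lower against PLX7904, and the 6 genes were called under it too. When the variance was moderated without its dependence on signal, 1 of the 6 was still called in each of the vemurafenib comparisons, Sostdc1, and 43 and 35 genes were called in all. The 3 comparisons share arrays (the vemurafenib and PLX7904 differences from DMSO rest on the same DMSO array), so their values stand side by side and are not independent.

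**Figure D1:**
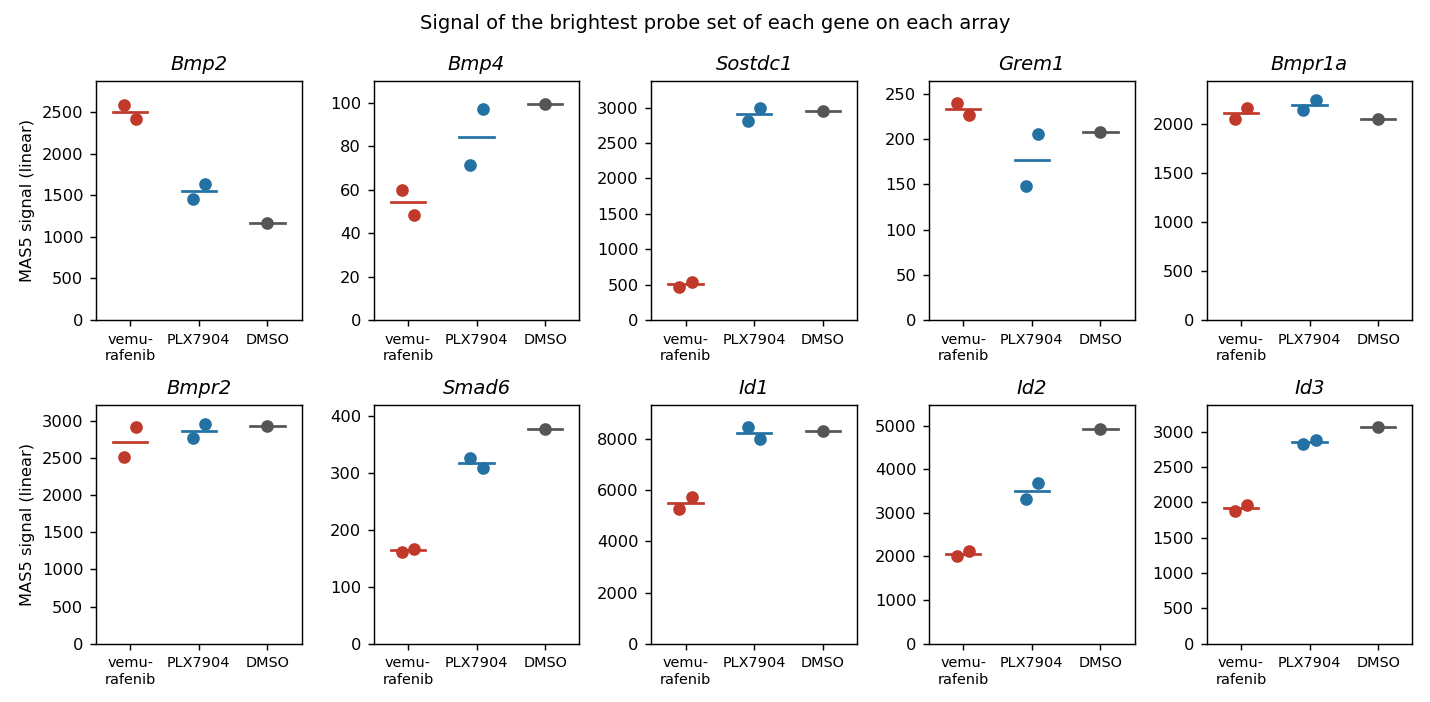
MAS5 signal (linear axis from 0) of the brightest probe set of each gene, with each point an array and each bar the group mean, for vemurafenib (2 arrays), PLX7904 (2 arrays) and DMSO (1 array). The vemurafenib arrays of Bmp2 and Grem1 lie above the rest, those of Bmp4, Sostdc1, Smad6, Id1, Id2 and Id3 lie below the rest, and those of Bmpr1a and Bmpr2 overlap the range of the other arrays.

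Bmp2 was the member of the group that was called higher with vemurafenib. Its probe set had signals of 2588 and 2419 with vemurafenib, 1460 and 1632 with PLX7904, and 1164 with DMSO. The vemurafenib arrays were highest, the PLX7904 arrays lay between, and no 2 groups overlapped. The level with vemurafenib was 2.15 times that with DMSO (95% interval 1.81 to 2.54) and 1.62 times that with PLX7904 (1.41 to 1.86). With PLX7904 it was 1.32 times the DMSO level (1.12 to 1.57, not adjusted for the number of genes), and this comparison was not called. Bmp2 lies at chr2:133552159-133562896 (GRCm38.p6).

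Bmp4, the other ligand, had a dim signal, with values of 59.9 and 48.3 with vemurafenib, 71.5 and 96.8 with PLX7904, and 99.2 with DMSO. The vemurafenib arrays were the lowest and the DMSO array the highest. The log2 difference of vemurafenib minus DMSO was -0.84 (95% interval -1.74 to 0.05), and no comparison of Bmp4 was called. MAS5 signals this dim vary widely between arrays. Bmp4 lies at chr14:46383525-46390669.

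Sostdc1, which encodes a secreted BMP and Wnt antagonist (also called ectodin or wise), had the largest difference of the 10 genes. The gene lies at chr12:36314169-36318452, and its brighter probe set read 467 and 542 with vemurafenib, 2812 and 3000 with PLX7904, and 2951 with DMSO. The PLX7904 arrays stood on either side of the DMSO array, and both vemurafenib arrays were far below. Its level was 5.83 times lower with vemurafenib than with DMSO (95% interval 4.86 to 7.01) and 5.74 times lower than with PLX7904 (4.94 to 6.67). With PLX7904 the log2 difference from DMSO was -0.02 (95% interval -0.29 to 0.24). The second probe set read 177 and 153 with vemurafenib, 792 and 693 with PLX7904, and 837 with DMSO. Here too the vemurafenib arrays were far below the others, while both PLX7904 arrays were below the DMSO array. On it the log2 differences were -2.32 for vemurafenib minus DMSO and -2.15 for vemurafenib minus PLX7904.

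Grem1 (chr2:113748675-113758648), which encodes the BMP antagonist gremlin 1, was not called in any comparison. It had signals of 240 and 227 with vemurafenib, 148 and 206 with PLX7904, and 208 with DMSO. The vemurafenib arrays were the highest, but the PLX7904 arrays differed from each other by more than the vemurafenib arrays differed from DMSO. The log2 difference of vemurafenib minus DMSO was 0.16 (95% interval -0.36 to 0.69), and that of vemurafenib minus PLX7904 was 0.41 (-0.02 to 0.84).

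No comparison of the receptors was called. Bmpr1a (chr14:34411061-34503336), a type I receptor, had 2057 and 2160 with vemurafenib, 2142 and 2249 with PLX7904, and 2049 with DMSO on its brightest probe set. Bmpr2 (chr1:59764279-59878081), the type II receptor, had 2514 and 2917 with vemurafenib, 2766 and 2953 with PLX7904, and 2927 with DMSO. For both genes the groups overlapped or nearly touched. The log2 difference of vemurafenib minus DMSO was 0.04 (95% interval -0.17 to 0.26) for Bmpr1a. For Bmpr2 it was -0.11 (95% interval -0.35 to 0.13). These intervals reach as far as a log2 difference of 0.26 in Bmpr1a and -0.35 in Bmpr2. The direction of the Bmpr2 difference is not settled, since it turned to 0.04 with median centring. A dimmer Bmpr2 probe set read 52.8 and 7.85 with vemurafenib, 52.9 and 54.9 with PLX7904, and 65.5 with DMSO, so that 1 vemurafenib array sets its log2 difference of -1.46. Another Bmpr2 probe set gave -0.08, and 4 of the other 5 Bmpr1a probe sets were between -0.21 and 0.00. The remaining one was the dimmest (signals 1.41 to 10.2) and gave 0.49.

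Smad6 (chr9:63953076-64022085) was lower with vemurafenib. Its probe set read 161 and 167 with vemurafenib, 327 and 308 with PLX7904, and 378 with DMSO. The vemurafenib arrays were below all others, and the PLX7904 arrays were below the DMSO array. Its level was 2.28 times lower with vemurafenib than with DMSO (95% interval 1.73 to 3.01) and 1.91 times lower than with PLX7904 (1.53 to 2.40). The PLX7904 log2 difference from DMSO was -0.25 (95% interval -0.65 to 0.15).

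The 3 Id genes were all lower with vemurafenib, by different amounts. They lie at chr2:152736251-152737410 (Id1), chr12:25093799-25096092 (Id2) and chr4:136143822-136145392 (Id3). Id2 read 1999 and 2124 with vemurafenib, 3322 and 3673 with PLX7904, and 4924 with DMSO. The groups did not overlap, and PLX7904 stood between the others. Id2 was 2.39 times lower with vemurafenib than with DMSO (95% interval 2.05 to 2.77) and its log2 difference from PLX7904 was -0.76 (-0.94 to -0.58). With PLX7904 it was 1.41 times lower than with DMSO (1.21 to 1.64), which was not called. Its other probe sets gave log2 differences of vemurafenib minus DMSO of -1.08 and -1.51. They gave -0.17 and -0.52 for PLX7904 minus DMSO, so the PLX7904 arrays lay between the other groups on all 3 probe sets.

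Id1 read 5275 and 5734 with vemurafenib, 8488 and 7994 with PLX7904, and 8304 with DMSO. The DMSO array lay between the PLX7904 arrays, and both vemurafenib arrays were below them. Id1 was 1.51 times lower with vemurafenib than with DMSO (95% interval 1.33 to 1.71) and its log2 difference from PLX7904 was -0.58 (-0.73 to -0.43). Id3 read 1882 and 1959 with vemurafenib, 2828 and 2883 with PLX7904, and 3072 with DMSO, with the vemurafenib arrays below all others. Id3 was 1.60 times lower with vemurafenib than with DMSO (1.39 to 1.84) and 1.49 times lower than with PLX7904 (1.32 to 1.67). The log2 differences of PLX7904 minus DMSO were -0.01 for Id1 and -0.11 for Id3, neither of which was called. The intervals of vemurafenib minus DMSO for Id2 (log2 -1.47 to -1.04) do not overlap those of Id1 (-0.78 to -0.41) or Id3 (-0.88 to -0.47), although a difference between the genes was not tested. In bulk RNA, fewer cells of a type and less RNA per cell cannot be told apart.

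**Figure D2:**
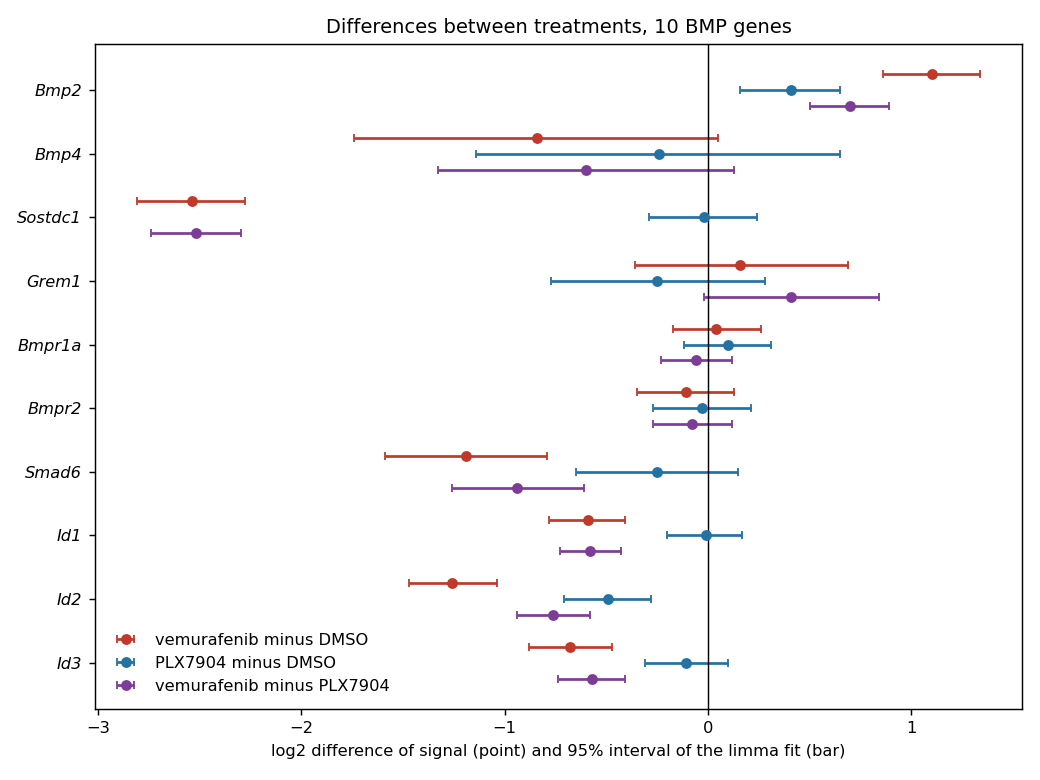
Log2 difference of signal (point) with the 95% interval of the limma fit (bar) for each of the 10 genes and each of the 3 comparisons. Sostdc1 lies near -2.5 in both vemurafenib comparisons, whereas the PLX7904 minus DMSO points lie between -0.49 (Id2) and 0.41 (Bmp2).

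Promoter sequence is shown for 2 of the called genes and for 1 receptor that was not called. BMP-activated SMADs bind short DNA motifs, and whether they bind in the sequences shown was not tested. RefSeq windows of the 250 bases before a transcript start (GRCm38.p6) matched 7 of the 10 genes, without Bmp2, Id1 and Sostdc1. For 5 of the 7 the window ends at the outer start of the gene, but that of Bmpr1a lies wholly inside the gene and that of Smad6 overlaps it. Capitals mark GGCGCC, a GC-rich SMAD motif that reads the same on both strands, and AGAC, the core of the SMAD box, or GTCT, its reverse. The motifs do not overlap in the windows shown. Id2 is at chr12:25096093-25096342 (minus strand), Id3 at chr4:136143572-136143821 (plus strand) and Bmpr2 at chr1:59764029-59764278 (plus strand).
Id2: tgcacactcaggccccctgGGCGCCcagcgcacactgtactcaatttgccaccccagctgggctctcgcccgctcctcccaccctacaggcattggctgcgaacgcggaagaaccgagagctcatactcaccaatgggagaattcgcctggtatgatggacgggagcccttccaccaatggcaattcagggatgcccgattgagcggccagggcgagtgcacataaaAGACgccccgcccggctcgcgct
Id3: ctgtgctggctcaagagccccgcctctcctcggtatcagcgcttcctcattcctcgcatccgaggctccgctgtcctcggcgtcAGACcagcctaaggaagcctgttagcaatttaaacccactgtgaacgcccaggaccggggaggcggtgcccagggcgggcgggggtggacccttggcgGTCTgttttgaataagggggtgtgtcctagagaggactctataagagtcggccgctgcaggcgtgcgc
Bmpr2: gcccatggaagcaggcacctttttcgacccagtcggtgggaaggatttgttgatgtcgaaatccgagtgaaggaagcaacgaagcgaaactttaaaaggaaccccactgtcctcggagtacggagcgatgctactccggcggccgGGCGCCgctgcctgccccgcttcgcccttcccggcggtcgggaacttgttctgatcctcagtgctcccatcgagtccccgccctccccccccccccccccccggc

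GGCGCC stood in the windows of 4 of the 7 genes (Id2, Bmpr1a, Bmpr2 and Grem1), against 9.6% of 32851 RefSeq windows. AGAC or GTCT stood in 5 of the 7 (Id2, Id3, Smad6, Bmp4 and Grem1), against 82.9% of all windows. The windows of Bmpr1a and Smad6, which lie within or overlap their genes, are included in these counts. Among genes that carried GGCGCC were the called gene Id2 and the uncalled genes Bmpr1a, Bmpr2 and Grem1. These are counts of letters and say nothing of binding, and no test was made.

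**Figure D3:**
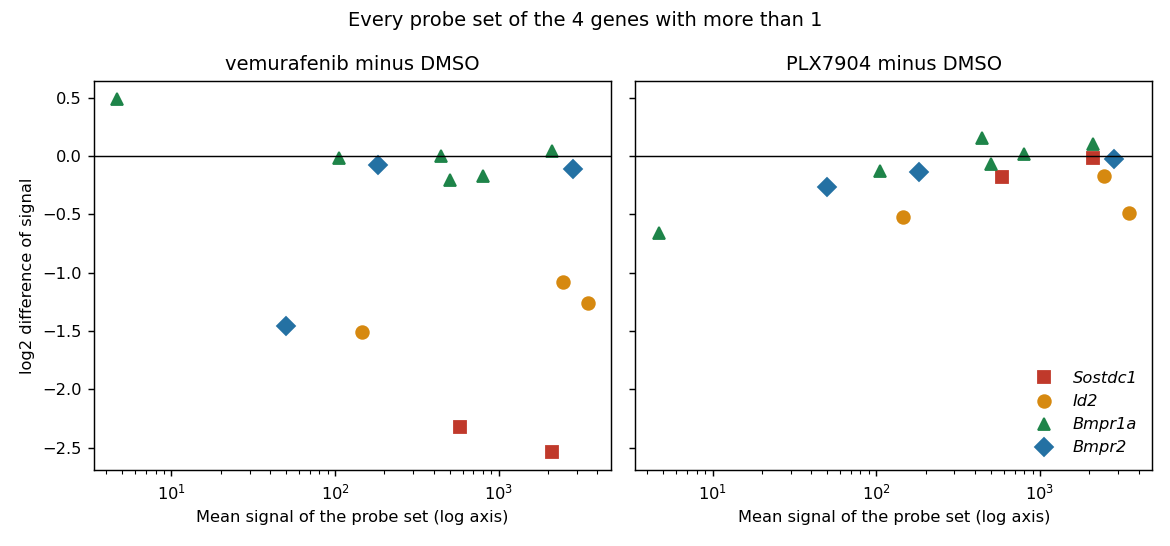
Log2 difference of each probe set (vertical axis) against its mean signal (log axis) for the 4 genes with more than 1 probe set, with vemurafenib minus DMSO on the left and PLX7904 minus DMSO on the right. The 3 Id2 and 2 Sostdc1 probe sets all lie below 0 with vemurafenib, and the Bmpr1a and Bmpr2 sets scatter about 0 except for dim ones.

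The other genes of the pathway are described by their counts. Of 63 other BMP pathway genes listed, 58 are on the array and 38 were tested, and 2 (Fstl1 and Ski) were called with vemurafenib against DMSO, both lower, where 10.6% of all genes were called. With PLX7904 against DMSO 0 of the 38 were called, where 0% of all genes were. With vemurafenib against PLX7904 1 was called higher (Rgmb) and 1 lower (Fstl1), where 13.3% of all genes were called. The median log2 difference of vemurafenib minus DMSO over these 38 genes was -0.04, beside -0.05 over all genes tested. By role, 3 of 10 listed ligands, 9 of 16 antagonists, 7 of 9 receptors and co-receptors, 12 of 13 SMADs and regulators, 2 of 9 targets, 3 of 3 ID partners and 2 of 3 Wnt co-receptors were tested. The list was made with earlier results of these arrays known, so its counts and the adjusted p-values of its genes are descriptions.

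Fstl1 encodes follistatin-like 1, a secreted protein that in mouse limits BMP4 signalling. It read 1580 and 1552 with vemurafenib, 2383 and 2454 with PLX7904, and 2829 with DMSO, with no overlap between groups. It fell 1.81-fold with vemurafenib relative to DMSO (95% interval 1.56 to 2.09, limma adjusted p = 4.18e-04) and 1.54-fold relative to PLX7904 (1.37 to 1.74, limma adjusted p = 6.62e-04), and was lower on both vemurafenib arrays. Both calls were lost without the intensity trend (adjusted p = 0.0692 and 0.0642). Its second probe set gave log2 differences of -0.67 and -0.57 for these comparisons. Ski, a corepressor that binds SMADs, read 569 and 629 with vemurafenib, 691 and 685 with PLX7904, and 878 with DMSO. It fell 1.46-fold with vemurafenib relative to DMSO (1.20 to 1.78, limma adjusted p = 0.0227), but its other probe set gave a log2 difference of 0.04, and its call was lost under 4 alternatives. These were median centring (adjusted p = 0.130), the average of its probe sets (log2 -0.26, adjusted p = 0.346), moderation without the intensity trend (adjusted p = 0.123) and leaving out vemurafenib replicate 1 (adjusted p = 0.0889). Rgmb, a BMP co-receptor, read 667 and 625 with vemurafenib, 466 and 473 with PLX7904, and 478 with DMSO. It rose 1.37-fold with vemurafenib relative to PLX7904 (1.16 to 1.62, limma adjusted p = 0.0212), and that call was lost when its probe sets were averaged (adjusted p = 0.791), without the intensity trend (adjusted p = 0.0843) and without any single treated array except vemurafenib replicate 2. Against DMSO, the Rgmb log2 difference of 0.43 was not called (limma adjusted p = 0.0693).

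The brightest other gene of each role was not called with vemurafenib against DMSO. The log2 differences were 0.22 for the ligand Bmp6, 0.19 for the antagonist Fst, 0.22 for the type I receptor Acvr1 and 0.23 for the Wnt co-receptor Lrp6. Among regulators Tob1 gave -0.07, and among ID partners Tcf12 gave -0.23. Id4, the other Id gene, read 1655 and 1700 with vemurafenib, 2020 and 1772 with PLX7904, and 1572 with DMSO. Its log2 difference of vemurafenib minus DMSO was 0.09 (95% interval -0.15 to 0.34, limma adjusted p = 0.639). A dimmer Id4 probe set read 987 and 1098 with vemurafenib, 1307 and 1258 with PLX7904, and 1225 with DMSO, with the vemurafenib arrays lowest. The dimmest read 377 and 524 with vemurafenib, 543 and 535 with PLX7904, and 385 with DMSO. On it the vemurafenib arrays stood on either side of the DMSO array, so the Id4 probe sets did not share a direction.

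**Figure D4:**
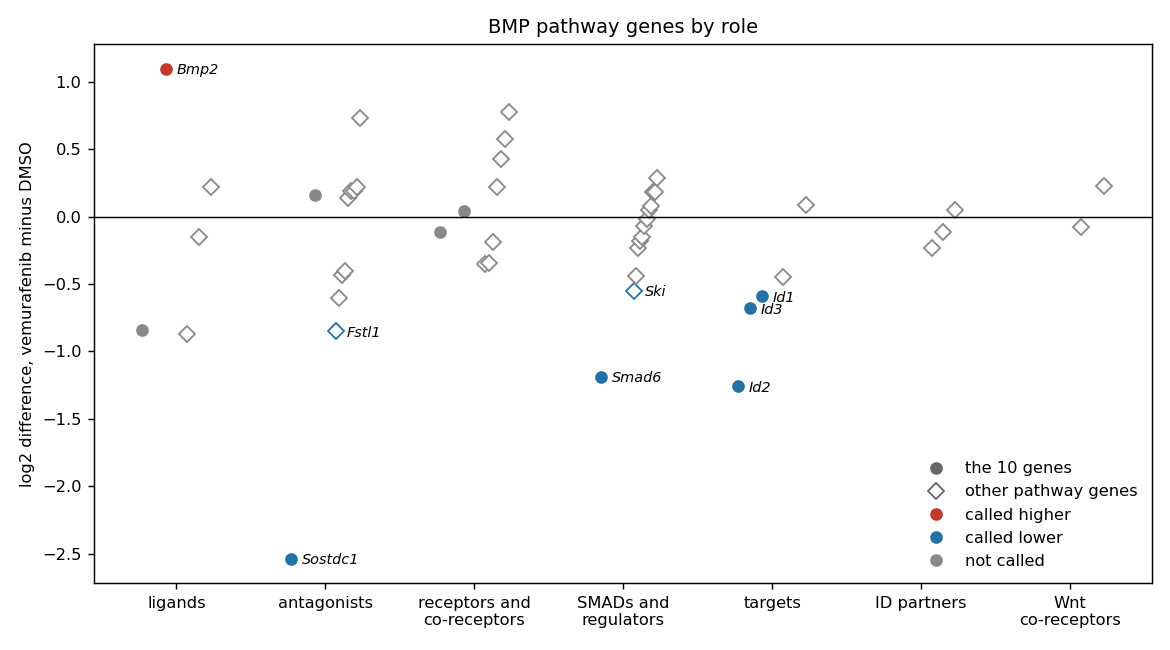
Log2 difference of vemurafenib minus DMSO by role, with the 10 genes as filled circles and the other pathway genes as open diamonds, red where called higher, blue where called lower and grey where not called. The called genes are Bmp2 above 0 and Sostdc1, Fstl1, Ski, Smad6, Id1, Id2 and Id3 below 0.

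The genes whose 5-array pattern was nearest to a member, by Euclidean distance over the 5 log2 values minus the DMSO value, are named for the 3 members with the largest vemurafenib difference. Ptn was nearest to Sostdc1 at a distance of 0.40, followed by Gbp2 and Tppp3 at 0.81 each. Eva1c (0.16), Il13ra2 (0.21) and Antxr1 (0.22) were nearest to Id2. Ttc30b (0.08), Aopep (0.12) and Spink5 (0.17) were nearest to Smad6. The log2 difference of vemurafenib minus DMSO was -2.59 for Ptn, -1.31 for Eva1c and -1.13 for Ttc30b, beside -2.54 for Sostdc1, -1.26 for Id2 and -1.19 for Smad6. Such closeness follows from how these genes were picked, and every value in the distance rests on the same DMSO array.

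The mean of the middle 96% of values was 500 on each array. The values were deposited scaled per array, so this mean cannot show whether the arrays were alike. Array medians ranged from 44.1 to 51.9. Dusp5, Dusp6, Spry2 and Egr1, known outputs of ERK signalling, were 1.44 to 3.97 times higher with vemurafenib than with DMSO and 1.16 to 1.75 times higher with PLX7904, and all 4 were called for vemurafenib and none for PLX7904. Spry4 was also planned for this check, but no value for it is given here. All 7 keratinocyte and epithelial markers passed the signal filter, with summed signals of 93329 and 91707 with vemurafenib, 84192 and 81086 with PLX7904, and 76702 with DMSO. Of 5 fibroblast markers 1 passed (Pdgfra), and their sums were 384 and 355 with vemurafenib, 180 and 225 with PLX7904, and 139 with DMSO. Of 4 melanocyte markers 1 passed (Pmel), and their sums were 125 and 144 with vemurafenib, 115 and 139 with PLX7904, and 41.6 with DMSO. Of 3 endothelial markers 1 passed (Pecam1), with sums of 45.1 to 176, and of 3 immune markers 1 passed (Cd68), with sums of 105 to 186. No marker was listed at 0. The epithelial markers did not move one way: with vemurafenib against DMSO the log2 differences were 0.70 for Krt18, 0.59 for Epcam and 0.29 for Krt8, all called higher, against -0.21 for Krt5 and -0.21 for Cdh1, neither called. Against PLX7904, Krt5 was called lower (log2 -0.23, limma adjusted p = 0.0176). With vemurafenib against DMSO, 2 markers of other cell types were called higher. These were Pdgfra, by 2.89 times (limma adjusted p = 0.00327), and Pmel, by 5.57 times (limma adjusted p = 0.00936). Pmel read 85.5 and 82.8 with vemurafenib, 72.2 and 60.8 with PLX7904, and 12.4 on the lone DMSO array. With PLX7904, Pmel was 4.43 times higher than with DMSO (not called), so both differences rest on 1 dim DMSO value. Between vemurafenib and PLX7904 the Pmel log2 difference was 0.33, not called (limma adjusted p = 0.639). Pdgfra was called higher with vemurafenib than with PLX7904 (1.81 times, limma adjusted p = 0.0166). The part of these marker differences in those of the BMP genes was not tested.

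For PLX7904 minus DMSO, limma called 0 of 10853 genes, with 722 genes at an unadjusted p under 0.05 where 543 would be expected by chance, and a smallest adjusted p of 0.0567. The half-width of the 95% interval had a median of 0.31 on the log2 scale, so that for a typical gene a smaller difference could not be told from 0 with 1 DMSO array. Leaving out a vemurafenib array, which leaves the PLX7904 and DMSO arrays as they were, brought 27 or 29 calls, Id2 among them each time.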

How the data were processed

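Each of 5 mouse arrays measured RNA of 1 culture. The deposited values are linear signal intensity for each of 45101 probe sets, made with MAS5 per the submitters' processing notes and scaled per array. No detection calls were used. The compound volume given in the labels' protocols is 0.02% of the medium, whereas the labels give the vehicle as 0.2% DMSO, so vehicle matching is unclear.

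Probe sets with 1 symbol (34958) were kept, and each gene took its brightest. The log2 of signal plus 3.34 was modelled by group in R 4.3.3, using lmFit and trended eBayes of limma 3.58.1 (2 residual and 8.28 prior degrees of freedom). Genes whose signal averaged 47.4 or more entered the tests. The pseudocount understates changes of dim genes. Figures used Python 3.11.15 and matplotlib 3.10.9. The pipeline was tested on simulated data.

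The members and lists were chosen with earlier results of these data known. Other genes are named where called, or as the brightest of their role. The labels state no pairing of the replicates. The correlation over genes of replicate deviations between vemurafenib and PLX7904 was -0.0071, which cannot show whether cultures were paired. Alternatives covered pseudocount, filter, scaling, variance moderation, probe set choice, replicate block and leaving out each treated array.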

Additional observations from a re-analysis of the deposited data

How the results depend on the processing

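The 6 called members kept their direction under every alternative in which they were measured, and their calls under all but eBayes without the intensity trend, where Sostdc1 alone was called in both vemurafenib comparisons (1 member each). Sostdc1 ranged from -2.65 to -2.39, Id2 from -1.51 to -1.11, Smad6 from -1.21 to -1.04 and Bmp2 from 1.05 to 1.25 on the log2 scale (vemurafenib minus DMSO). The filter at the 75th percentile left out Bmp4, Grem1 and Smad6, and leaving out probe sets with the suffix x, s or a left out Id1 and Grem1.

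Genes called for vemurafenib minus DMSO, 1155 as reported, were 657 with no filter, 43 without the trend (40 of them among the 1155) and 443 with the mean of all probe sets. Leaving out each treated array gave 881 to 1510. For vemurafenib minus PLX7904, 1443 as reported, they were 35 without the trend and 663 with the mean of all probe sets, and 899 to 1288 with an array left out. For PLX7904 minus DMSO, 0 as reported, they were 3 with the higher filter, 3 with robust eBayes, 3 without the suffixed probe sets, 5 with median centring and 4 with the replicate block, and 0 to 29 with an array left out. Members called there were 0 to 1 with an array left out. The cause of these shifts was not tested.

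The replicate block gave 1212 genes called for vemurafenib minus DMSO and 1584 for vemurafenib minus PLX7904, with the same 6 members, although the labels state no pairing. Some uncalled differences changed sign. Among members, these were Bmpr2 (up to 0.04) for vemurafenib minus DMSO, then Sostdc1 (0.02), Id1 (0.03), Bmpr1a (-0.10) and Bmpr2 (0.01) for PLX7904 minus DMSO, and Bmpr1a (0.12) and Bmpr2 (0.07) for vemurafenib minus PLX7904. Among other pathway genes, these were Rgmb against DMSO with vemurafenib (-2.6e-04, mean of all probe sets) and with PLX7904 (0.01 quantile, 0.02 cyclic loess). Likewise Acvr1 gave -0.03 with the mean of all probe sets, and Tob1 gave 0.08 with median centring, 0.41 with the mean of all probe sets and -0.16 to 0.02 with an array left out. The number of arrays, 5 in all with a lone DMSO array, limits the precision of every value.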
